A study of Mus musculus with 3 samples.

Results

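Interferon-high epithelial cells were single cells of the mouse intestinal epithelium in which at least 4 of 6 interferon-induced genes (Ifit1, Ifit3, Ifit1bl1, Isg15, Rsad2 and Ddx60) each gave at least 1 unique molecular identifier (UMI, a tag that marks 1 captured transcript). They made up 189 of the 5594 cells kept from 3 single-cell RNA sequencing (scRNA-seq) libraries. The first cKO library (Arid3a cKO 1) had 60 among 2134 kept cells, the second (Arid3a cKO 2) 49 among 1550, and the WT library 80 among 1910. Values listed below for the 3 libraries follow this order. The Arid3a cKO mice were VillinCreERT2, Arid3a fl/fl, and the WT mouse was VillinCreERT2 without floxed Arid3a. Both groups received tamoxifen at 8 to 10 weeks of age and were harvested 1 month after the first injection, so the controls shared the Cre transgene and its induction. Villin drives the Cre throughout the intestinal epithelium, which means that all epithelial classes were targets of the deletion. Intestinal crypts were isolated and dissociated, and live (DAPI-), Epcam+, CD45-, CD31- cells were sorted before library preparation with the 10x Genomics 3′ kit. WT is represented by 1 library here, so no comparison between genotypes was tested, and the smallest one-sided permutation p that 3 libraries allow is 0.333.

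Interferons are secreted proteins that warn cells of viral infection. Type I interferons signal through the Ifnar1 and Ifnar2 receptor chains, type III interferons (interferon-λ) through Ifnlr1 and Il10rb, and interferon-γ through Ifngr1 and Ifngr2. The type I and type III receptors activate a transcription factor complex that holds Stat2 and Irf9, which binds the interferon-stimulated response element (ISRE) and switches on antiviral genes, and the intestinal epithelium is known for its strong response to interferon-λ. Of the 6 genes used for selection, Ifit1, Ifit3 and Ifit1bl1 belong to the Ifit family, whose best known members bind foreign RNA. Isg15 encodes a ubiquitin-like protein that is conjugated to other proteins, Rsad2 encodes viperin, an enzyme that makes a chain-terminating nucleotide, and Ddx60 encodes a helicase of the antiviral response.

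The 150 bases in front of the RefSeq start site are shown for 4 of the selecting genes and for Gbp3 and Igtp, both strongly raised in the selected cells, because they hold letters of the element through which interferon-induced genes are known to be switched on. Sequences are from RefSeq on GRCm38.p6 and are written 5′ to 3′ on the strand of the gene, with matches to the ISRE-like core GAAANNGAAA, searched on both strands with overlapping matches allowed, in capitals.
Isg15 (chr4:156200819-156200968, minus strand): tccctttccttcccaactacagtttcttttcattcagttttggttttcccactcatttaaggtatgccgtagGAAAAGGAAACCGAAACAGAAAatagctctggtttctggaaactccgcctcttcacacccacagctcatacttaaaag
Ifit1 (chr19:34640739-34640888, plus strand): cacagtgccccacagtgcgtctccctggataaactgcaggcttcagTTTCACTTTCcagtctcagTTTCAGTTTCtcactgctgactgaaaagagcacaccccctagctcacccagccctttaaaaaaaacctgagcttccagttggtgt
Rsad2 (chr12:26456453-26456602, minus strand): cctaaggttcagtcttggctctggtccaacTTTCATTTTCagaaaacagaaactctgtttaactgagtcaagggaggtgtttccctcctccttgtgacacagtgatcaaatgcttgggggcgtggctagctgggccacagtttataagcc
Ddx60 (chr8:61927937-61928086, plus strand): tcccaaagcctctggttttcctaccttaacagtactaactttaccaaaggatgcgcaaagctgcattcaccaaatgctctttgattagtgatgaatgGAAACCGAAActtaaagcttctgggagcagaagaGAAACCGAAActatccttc
Gbp3 (chr3:142559894-142560043, plus strand): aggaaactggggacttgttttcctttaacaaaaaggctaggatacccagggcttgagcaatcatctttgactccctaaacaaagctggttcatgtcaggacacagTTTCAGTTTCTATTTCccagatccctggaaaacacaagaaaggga
Igtp (chr11:58199406-58199555, plus strand): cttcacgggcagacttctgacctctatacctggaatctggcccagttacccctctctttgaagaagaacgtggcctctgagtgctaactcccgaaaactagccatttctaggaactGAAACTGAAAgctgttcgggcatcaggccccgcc

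In these windows Isg15 has 3 overlapping matches that begin 78, 72 and 66 bases before the start site, Ifit1 has matches at 104 and 85 bases, and Ddx60 at 53 and 19 bases. Rsad2 has 1 match at 120 bases and Igtp 1 at 34 bases, whereas the 2 matches of Gbp3, at 45 and 39 bases, overlap. Over the full RefSeq window of 250 bases before to 50 bases after the start, a match was found for all 6 selecting genes. Of all genes with such a window, 1079 of 27025 (3.99%) had a match in at least 1 of their windows. A match describes letters in a window and is neither a bound site nor a cause of the levels below.

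Before the cells were described, the genotype labels and the sort were checked. Arid3a gave 42, 52 and 161 UMIs over the kept cells of the 3 libraries, which is 0.592, 0.894 and 2.57 CPM (UMIs of a gene scaled to a fixed total, the usual counts per 1e6 UMIs). The cKO libraries both lay below WT. Within the interferon-high cells there were 0, 3 and 9 Arid3a UMIs, and the 0 of Arid3a cKO 1 allows up to 1.54 CPM. In those of the largest cluster, used below to compare genotypes, there were 0, 3 and 3 (0, 2.80 and 2.20 CPM), so Arid3a cKO 2 was not below WT there. The kit tags the 3′ end of transcripts, so the exons removed by Cre were not assessed on their own. The libraries also differed in ways that the genotype labels do not name: the mitochondrial gene mt-Nd3 was at 8.30, 10.3 and 277 CPM and Gm28438 at 94.5, 73.1 and 0.0638 CPM, so genotype and library cannot be told apart. The matrices held 105912207, 94614297 and 129243053 UMIs, the kept cells had a median of 31391.5, 35764 and 29895 UMIs, and 11 to 18 barcodes were shared between pairs of libraries, of which 0 to 2 were kept in both.

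The interferon-high cells carried the markers of the epithelium. Epcam, the surface protein used for the sort, was detected in 188 of 189 cells (99.5%), and Vil1, which encodes the brush border protein villin, likewise in 188. Ptprc, which encodes the CD45 of blood cells, was found in 3 of 189 (1.59%, against 1.38% of matched cells), Pecam1, which encodes CD31, in 2 (1.06%, against 0.963%), and the T cell gene Cd3e in 0 of 189, which allows a share of up to 1.59%. The 10 lymphocyte genes together were at 0.514, 0 and 1.39 CPM in the interferon-high cells and at 7.71, 0.509 and 36.3 CPM in the matched cells, where matched means other cells of the same library and cluster with the nearest total UMIs. The 0 of Arid3a cKO 2 allows up to 1.62 CPM, so no difference was detectable in that library. Cells with a lymphocyte UMI made up 2.65% of the interferon-high and 2.59% of the matched cells (5.0% and 3.71% in WT).

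The 6 selecting genes chose the cells, and their levels are a description only. Ddx60 was detected in 94.7% of the interferon-high cells, Isg15 in 94.2%, Ifit1 in 89.4%, Ifit1bl1 in 63.5%, Ifit3 in 60.8% and Rsad2 in 52.4%. Rsad2 and Ifit3 were thus the genes most often missing. Isg15 was at 422, 450 and 315 CPM in the interferon-high cells and at 15.05, 13.7 and 15.2 CPM in all other kept cells. Ifit1 was at 189, 164 and 228 CPM and at 4.71, 3.75 and 7.26 CPM in the same order. The remaining genes had 89.3 CPM (Ifit3), 136 CPM (Ifit1bl1), 51.7 CPM (Rsad2) and 151 CPM (Ddx60) over all interferon-high cells. Although these cells were 3.38% of the cells kept, they held 65.5% of all Ifit3 UMIs, 57.8% of Ifit1 UMIs and 48.5% of Isg15 UMIs, so about as much of these 3 transcripts, or more, lay in the selected cells as in all others.

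The selected cells were unequal among themselves. A cell held a median of 15 UMIs of the 6 genes together (20, 15 and 13.5 by library), with a lowest value of 4 and a highest of 302. There were 74 cells with 20 or more such UMIs and 16 with 100 or more, and the 20 highest cells held 49.5% of all 6-gene UMIs of the group. Exactly 4 genes were found in 116 cells, 5 in 42 and all 6 in 31. Just outside the threshold stood 333 cells with 3 of the genes. Isg15 was at 62.6 CPM in cells with 3 genes and at 147 CPM in cells with 4, Ddx60 at 44.6 and 84.1 CPM, and Ifit3 at 8.47 and 17.0 CPM, so the cells on either side of the threshold were closer to each other than the averages of the whole groups.

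**Figure D1:**
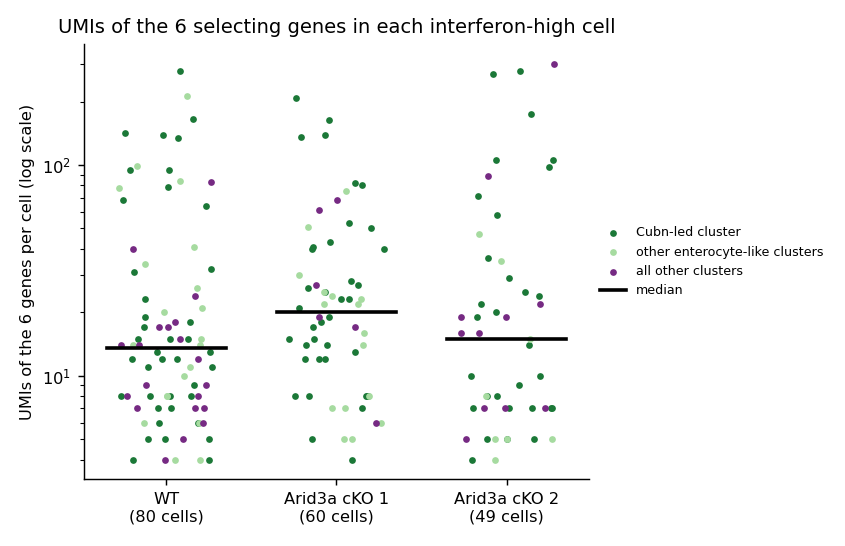
UMIs of the 6 selecting genes together in each of the 189 interferon-high cells (log axis), by library, coloured by cluster class, with bars at the library medians of 20, 15 and 13.5 UMIs. Most cells lie near the bottom of a range from 4 to 302 UMIs, and 16 cells have 100 or more.

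The interferon-high cells were mostly enterocyte-like. Cells were clustered without the interferon-response genes, and 3 clusters were enterocyte-like by their absorptive markers (led by Cubn, Ms4a18 and Akp3). They held 152 of the 189 interferon-high cells (80.4%), a share of 90.0% (54 of 60), 77.6% (38 of 49) and 75% (60 of 80) by library, while 40.6% of all kept cells were in these clusters. The enrichment lay in 1 of them. The cluster led by Cubn, the gene of an endocytic receptor, held 108 interferon-high cells (57.1%) but 17.5% of the cells kept. The Cubn-led cluster contained 10.4%, 10.6% and 12.1% interferon-high cells (38 of 364, 30 of 282 and 40 of 331), with exact (Clopper-Pearson) 95% intervals of 7.49 to 14.05%, 7.29 to 14.8% and 8.78 to 16.1%. These intervals overlapped throughout, and like all intervals here they cover counting error only.

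The other absorptive clusters had fewer, with 25 of 764 cells (3.27%) in the Ms4a18-led cluster and 19 of 532 (3.57%) in the Akp3-led cluster. Stem-like cells were interferon-high in 4 of 1078 cases (0.371%, 0.101 to 0.947%), transit-amplifying (TA)-like cells in 6 of 694 (0.865%), and an unnamed Ccl20-led cluster in 2 of 749 (0.267%). These 3 clusters had the lowest shares, with intervals below that of the Cubn-led cluster. Of the secretory cells, 13 of 395 goblet-like (3.29%), 3 of 174 enteroendocrine-like (1.72%), 3 of 100 tuft-like (3%) and 1 of 80 Paneth-like cells (1.25%) were interferon-high. An unnamed Ghrl-led cluster of 51 cells held 5 (9.80%, 3.26 to 21.4%). Stem-like cells had a median of 29088 UMIs and Cubn-led cells that were not interferon-high 30613. The part of depth in the order of the clusters was not tested.

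**Figure D2:**
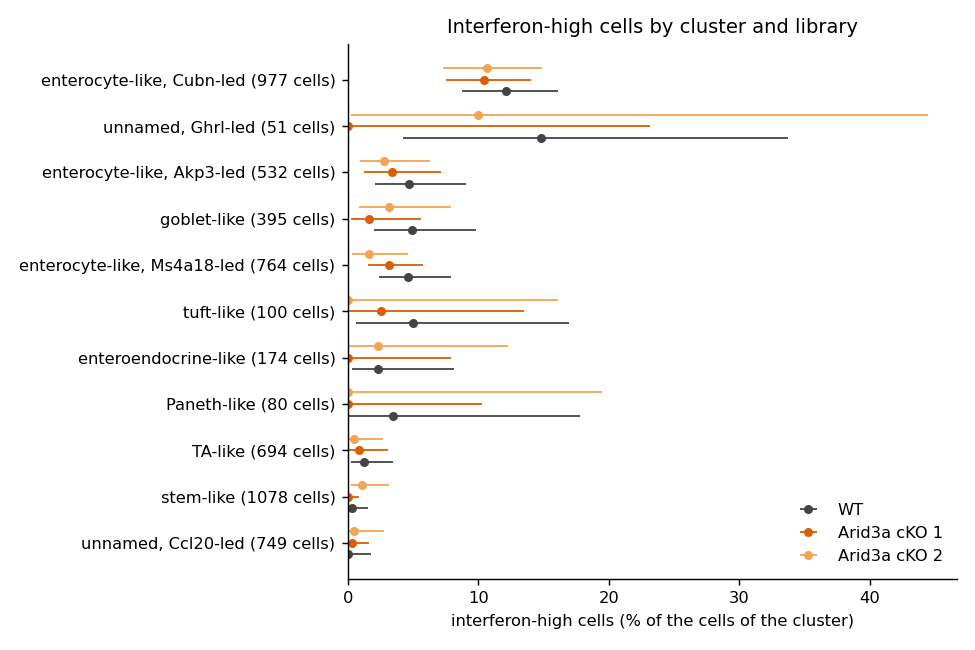
Percent of the cells of each cluster that were interferon-high, in each library (points), with exact 95% intervals (bars). In all 3 libraries the Cubn-led enterocyte-like cluster lies between 10.4 and 12.1%, while stem-like cells reach at most 1.10%.

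Possible doublets fell outside the absorptive clusters for the most part. Scrublet, a program that scores barcodes for the mixed profiles of 2 cells, marked 110 of the 5594 kept cells (1.97%), and 12 of the interferon-high cells (6.35%; 0, 5 and 7 by library). None of the 12 was in the Cubn-led cluster, 2 were in the other enterocyte-like clusters and 10 were in the remaining clusters. The 37 interferon-high cells of those remaining clusters thus include 10 marked cells, and their part in the values of those clusters was not tested. When the interferon-response genes were allowed into the clustering, a separate cluster of 58 cells appeared (25, 14 and 19 by library, or 1.17%, 0.903% and 0.995% of the kept cells). It contained 54 interferon-high cells, 48 of which came from the Cubn-led cluster.

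As a share of the cells kept, interferon-high cells were 2.81% (2.15 to 3.604%) of the first cKO library, 3.16% (2.35 to 4.16%) of the second and 4.19% (3.33 to 5.19%) of WT. Both cKO libraries lay below WT, by 1.20 percentage points on average, but each cKO interval overlapped that of WT. Cells with at least 14000 UMIs (1929, 1397 and 1712) were also thinned to that depth, and those with fewer were left out. The shares were then 1.35%, 1.43% and 1.81%, and the ratio of the cKO mean to WT was 0.77, against 0.71 among all kept cells without thinning. With at least 3 of the 6 genes the shares were 7.26%, 10.0% and 11.1%, and with at least 5 genes 1.12%, 1.16% and 1.62%, in the same order of libraries. WT was highest under each of these settings. It was not highest when only interferon-high cells with 20 or more UMIs of the 6 genes were counted (1.41%, 1.23% and 1.31%), nor in the separate cluster above, and the ratios of the cKO mean to WT were then 1.01 and 1.04. The difference was not tested.

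To find which other genes differed in these cells, the UMIs of the interferon-high cells and of up to 10 matched cells for each of them (546, 441 and 674 cells) were summed per library and compared by edgeR's quasi-likelihood test with the library as a block. The 6 selecting genes were left out. Because the cells were chosen by genes that vary together with the rest of the response, such genes had to differ. A call says only that the difference exceeded a spread estimated by the model from the 3 libraries and from other genes. The p-values refer to that estimated spread, and not to the agreement of the libraries or the number of cells involved. Gip, among the lower genes below, was called although it was at 9.25 against 7.53 CPM in Arid3a cKO 1. Of 11630 genes tested, 291 were higher (2.5%) and 285 lower (2.45%) at a Benjamini-Hochberg adjusted p under 0.05. The count fell to 153 higher and 131 lower without WT, and to 44 (0.378%) and 0 when the library was not a block in the edgeR model, where 928 genes had an unadjusted p under 0.05. DESeq2 with the block called 176 (1.51%) higher and 117 (1.01%) lower, and a fit on the largest cluster of these cells alone, referred to as the Cubn-led cluster fit and added after the data had been seen, called 173 (1.81%) and 77 (0.808%) of 9534 genes. Of the genes that were higher, 67 stood on the 8 lists of interferon ligands, receptors, sensors, factors and targets, against 1 of those that were lower. These lists and the 6 selecting genes together hold 125 genes. The lists were chosen with earlier results of these data known, so this overlap is a description only. The median log2 fold change of all tested genes was -0.01. Median depth over all classes was close, at 31696.5, 36960 and 32833.5 UMIs per interferon-high cell and 31108.5, 35471 and 31173 per matched cell. In the Cubn-led cluster, however, all 326, 252 and 291 other cells were used, fewer than 10 for each interferon-high cell. There the medians were 31420.5, 36123.5 and 32599.5 against 30147.5, 33475 and 29615 UMIs. That cluster thus made up less of the matched cells than of the interferon-high cells, so the cluster mix was not fully matched. The median mitochondrial share was slightly higher in the interferon-high cells of every library (5.75, 5.11 and 6.40% against 5.62, 4.86 and 5.77%).

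Transcripts of the interferons themselves were hardly detected. For 8 of the 10 ligand genes searched, among them Ifnb1, Ifne, Ifnl2 and Ifnl3, there was no UMI in any of the 5594 kept cells, which allows up to 0.0536% of cells with a UMI. Ifnk, a type I interferon of epithelia, had 6 UMIs, 1 of them in an interferon-high cell. Ifng, the interferon of T and natural killer cells, had 5 UMIs and none in an interferon-high cell.

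None of the 9 receptor and kinase genes was called, and their median log2 fold change was 0.05. Their summed level was 561, 545 and 489 CPM in the interferon-high cells and 531, 505 and 452 CPM in the matched cells, and 8 of the 9 fold changes were above 0. Ifnar2, a chain of the type I receptor, was at 29.8, 33.4 and 21.2 CPM in the interferon-high cells and at 23.1, 20.1 and 17.7 CPM in the matched cells. The groups overlapped, since WT interferon-high cells lay below the matched cells of Arid3a cKO 1. It was the closest of the 9 to a call, with a log2 fold change of 0.47 (SE 0.14; edgeR, adjusted p = 0.0544), and was higher in 3 of 3 libraries. Ifnlr1, the specific chain of the interferon-λ receptor, was at 6.16, 5.93 and 5.92 CPM against 5.40, 4.198 and 4.73 CPM (log2 0.35, SE 0.26; edgeR, adjusted p = 0.555). The level of both chains also differed between clusters, which was not tested. Ifnar2 was at 29.1, 27.98 and 24.3 CPM in the remaining cells of the Cubn-led cluster, at 18.3, 18.2 and 14.8 CPM in the other enterocyte-like cells, and at 8.29, 8.80 and 8.07 CPM in stem-like cells. Ifnlr1 was at 6.59, 4.52 and 5.71 CPM in the remaining Cubn-led cells and at 1.79, 1.70 and 1.87 CPM in stem-like cells. In every library the stem-like level of both chains lay below that of the remaining Cubn-led cells, without overlap between these groups. The 2 chains of the interferon-γ receptor went opposite ways. Ifngr1 was at 86.0, 84.7 and 74.7 CPM in the remaining Cubn-led cells and at 136, 141 and 94.8 CPM in stem-like cells. Ifngr2 was at 239, 251 and 207 CPM in the remaining Cubn-led cells and at 105, 103 and 75.1 CPM in stem-like cells. Ifnar1, the partner of Ifnar2, differed by less, with 17.2, 18.7 and 18.2 CPM against 13.7, 11.8 and 13.3 CPM.

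Sensors of foreign nucleic acid differed in part. Of 12 listed sensors 10 were tested, and 6 of them were higher and none lower, with a median log2 fold change of 0.64, while 3 were called without the library block. Dhx58, a regulator of the RIG-I-like RNA sensors, was at 16.4, 17.3 and 13.2 CPM in the interferon-high cells and at 2.97, 2.16 and 2.66 CPM in the matched cells. Every interferon-high value was far above every matched value, and the log2 fold change was 2.58 (SE 0.24; edgeR, adjusted p = 1.68e-06). Zbp1, which senses left-handed nucleic acid and can trigger cell death, was at 71.9, 71.7 and 96.7 CPM against 17.5, 15.1 and 35.2 CPM. The groups did not overlap, and the log2 fold change was 1.86 (SE 0.13; edgeR, adjusted p = 3.59e-08, or 0.0589 without the library block). Smaller rises were found for Ddx58 (RIG-I, log2 0.90), Ifih1 (MDA5, 0.87), the RNA-activated kinase gene Eif2ak2 (0.72) and the endosomal RNA receptor gene Tlr3 (0.56), each higher in 3 of 3 libraries. The call of Tlr3 was lost in the DESeq2 fit, where its adjusted p was 0.11, and in edgeR without WT (log2 0.56).

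Transcription factors of the response were higher as well, 6 of 7 tested (8 listed), with a median of 0.60, although the count was 3 by DESeq2 and 1 without the library block. Irf7, the factor that amplifies type I interferon production, was at 138, 108 and 95.7 CPM in the interferon-high cells and at 43.1, 37.1 and 35.4 CPM in the matched cells. All values of the first group lay above all of the second, and the log2 fold change was 1.58 (SE 0.08; edgeR, adjusted p = 1.11e-09). Stat2, a factor of the type I and III pathways, rose by 1.38 on the log2 scale (SE 0.18). Irf9, Irf1 and Irf8 had 0.60, 0.32 and 0.29 on that scale and lost the call in the DESeq2 fit (adjusted p of 0.21, 0.15 and 0.23). Without Arid3a cKO 1 the edgeR call was lost for Irf9 (0.40) and Irf1 (0.20), without Arid3a cKO 2 for Irf8 (0.26), and without WT again for Irf8 (0.29). Irf3, which acts upstream of interferon production, was not called (0.16; edgeR, adjusted p = 0.456).

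Antiviral effectors, the proteins that act on viruses directly, had the highest median of all lists. Of 35 tested effector genes (36 listed) 29 were higher and 1 lower, with a median log2 fold change of 1.66, and 22 were called higher without the library block. Ifi44, an interferon-induced antiviral gene, was at 10.8, 11.3 and 19.5 CPM in the interferon-high cells and at 0.237, 0.318 and 0.643 CPM in the matched cells. It was nearly absent from the matched cells (18 of 1661 cells with a UMI, against 36 of 189) and had a log2 fold change of 5.10 (SE 0.34; edgeR, adjusted p = 2.84e-08). Phf11d followed with 4.47 (SE 0.32), Mx2, an antiviral dynamin-like GTPase, with 4.15 (SE 0.40), and Ifit2 and Ifit3b with 3.69 each (SE 0.52 and 0.30). The call of Ifit2 was lost without WT, at a log2 fold change of 3.21. Ifit3b and Ifit3 are near copies, and reads shared between them could have been split or dropped, so their separate values are uncertain.

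Genes of RNA decay and of restriction at membranes belonged to this group. Oasl2, a member of the oligoadenylate synthetase family, was at 111, 70.1 and 86.0 CPM against 17.1, 15.3 and 18.6 CPM, and Oas3, which makes the signal for RNase L, at 23.6, 25.3 and 19.5 CPM against 2.43, 1.78 and 3.81 CPM. In both genes each interferon-high value exceeded all matched values. The log2 fold changes were 2.39 for Oasl2 (SE 0.10; edgeR, adjusted p = 2.72e-10) and 3.06 for Oas3 (SE 0.25; edgeR, adjusted p = 3.87e-07). Bst2 (tetherin), which holds budding virus at the cell surface, was at 78.6, 49.1 and 53.9 CPM against 14.9, 15.1 and 13.1 CPM (log2 2.09, SE 0.12; edgeR, adjusted p = 6.79e-09). Rtp4 (2.47), Trim30a (2.82), Xaf1 (2.29) and Rnf213, a giant ubiquitin ligase active against several pathogens (1.94), were all higher in 3 of 3 libraries and also without the library block. The single effector that was lower was Ifitm2, at 46.7, 102 and 75.9 CPM against 55.9, 125 and 107 CPM (log2 -0.33; edgeR, adjusted p = 0.0157, or 0.25 in the DESeq2 fit), and without WT it was not called (-0.25).

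Ifitm3, an entry inhibitor of enveloped viruses, depended on the cell class. Over all classes it had a log2 fold change of -0.00, with 58.0, 66.9 and 58.5 CPM in the interferon-high cells and 25.03, 71.6 and 97.3 CPM in the matched cells. In the Cubn-led cluster alone its log2 fold change was 3.86, and in the 3 enterocyte-like clusters 3.25. Outside the enterocyte-like clusters, pooled without matching, Ifitm3 was at 170 CPM in the interferon-high cells and 310 CPM in the others. In the Cubn-led cluster it was at 35.2 and 2.4 CPM. Ifitm3 was among the top 10 genes of the stem-like cluster, which held 4 of the 37 interferon-high cells of that pool. The 170 and 310 CPM thus come from unlike mixes of cells.

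Components of ISGylation, by which Isg15 is attached to proteins, were higher in 5 of 7 tested genes (8 listed, median 0.87), and in 2 without the library block. Usp18, the protease that removes Isg15 and also blocks the type I receptor, was at 27.7, 29.7 and 22.97 CPM against 1.48, 1.34 and 2.71 CPM. All interferon-high values were well above all matched values, and the log2 fold change was 3.82 (SE 0.25; edgeR, adjusted p = 2.51e-08). Herc6, the mouse ligase for Isg15, was at 39.6, 35.04 and 38.3 CPM against 6.35, 5.02 and 8.12 CPM (log2 2.54, SE 0.15; edgeR, adjusted p = 6.79e-09). Ube2l6, the conjugating enzyme, and Uba7, the activating enzyme, had smaller differences of 1.01 and 0.71, and the RNA-editing enzyme gene Adar of 0.87, which was not called without WT (0.71).

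Antigen presentation on major histocompatibility complex (MHC) class I was higher by less. Of 16 genes 11 were higher and none lower, with a median log2 fold change of 0.43, and none was called without the library block. Tap1, the peptide transporter, was at 81.2, 60.4 and 83.9 CPM against 41.9, 34.4 and 54.1 CPM (log2 0.81, SE 0.09; edgeR, adjusted p = 1.28e-05). B2m, the light chain of all class I molecules, was at 1667, 1722 and 1640 CPM against 1296, 1263 and 1317 CPM, with no overlap between the groups (log2 0.40, SE 0.07; edgeR, adjusted p = 0.00115). The immunoproteasome subunits Psmb8 and Psmb9 both had 0.52.

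Targets known for their response to interferon-γ were next. Of 20 listed genes 14 were tested, and 10 were higher and none lower (median 0.66). The count was 5 by DESeq2, 6 in the Cubn-led cluster alone and 1 without the library block. Gbp3, a guanylate-binding protein that coats intracellular microbes, was at 6.68, 7.55 and 4.87 CPM against 0.237, 0.382 and 0.367 CPM (log2 4.21, SE 0.44; edgeR, adjusted p = 1.14e-05). Igtp, an immunity-related GTPase of the same defence, was at 80.6, 60.4 and 143 CPM against 14, 7.51 and 43.0 CPM (log2 2.25, SE 0.16; edgeR, adjusted p = 7.44e-08, or 0.347 without the library block). In Igtp the WT library was highest in both kinds of cells. Irgm1, Irgm2 and Gbp7 had 2.25, 1.82 and 2.67, and the genes of the Irgm2, Igtp and Gm12250 region and those at Irgm1 overlap in the annotation, so their counts may be split between them.

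The MHC class II genes moved little. H2-Ab1 was at 93.0, 55.0 and 236 CPM against 81.4, 45.2 and 179 CPM (log2 0.33; edgeR, adjusted p = 0.0105), and H2-Aa at 17.5, 12.9 and 87.0 CPM against 16.9, 7.57 and 62.2 CPM (log2 0.45; edgeR, adjusted p = 0.0432). The difference between WT and cKO libraries was larger than that between interferon-high and matched cells, and in the Cubn-led cluster alone both genes were close to 0 on the log2 scale (0.06 and 0.02) and not called. Without WT neither was called over all classes (0.25 and 0.34). Their class II invariant chain gene Cd74 (0.25) and Ciita, the class II master regulator (-0.05), were not called in the fit over all classes. Cxcl10, a chemokine that attracts T cells, was at 19.5, 10.8 and 1.74 CPM against 2.43, 1.21 and 1.88 CPM. It was higher in both cKO libraries and not in WT, with a log2 fold change of 2.33 (SE 0.43; edgeR, adjusted p = 0.00343, or 0.30 in the DESeq2 fit), and it was not called without Arid3a cKO 1 (1.78).

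**Figure D3:**
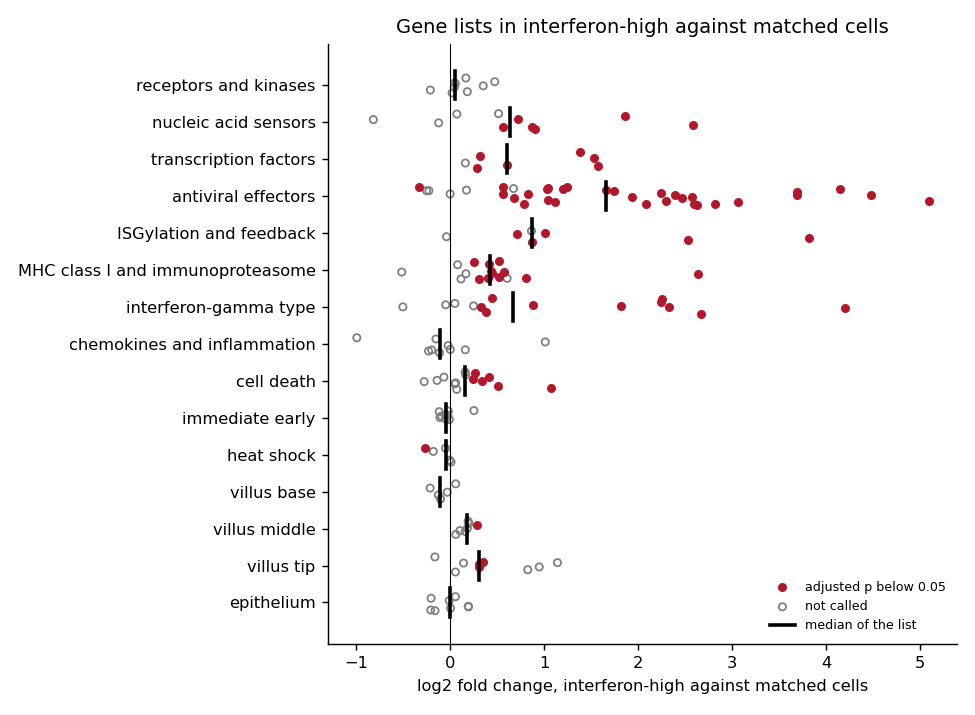
Log2 fold change between interferon-high and matched cells for every tested gene of each list (filled red points, called at an adjusted p under 0.05; open points, not called; bars, list medians). Antiviral effectors have the highest median, 1.66, whereas receptors and kinases lie around 0.05 with no called gene.

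Lists from outside the interferon pathway were mixed, beside shares of 2.5% higher and 2.45% lower among all genes tested. None of 9 tested chemokine and inflammation genes and none of 9 immediate early genes was called, and of 5 heat shock genes only Hsp90aa1 was lower (log2 -0.27), a call lost in the DESeq2 fit and without either cKO library (-0.26 and -0.23). Among 14 cell death genes 6 were higher, including Mlkl, the executor of necroptosis (log2 1.08, SE 0.22, and 0.99 without a call when Arid3a cKO 1 was left out). The count was 2 by DESeq2, 3 in the Cubn-led cluster alone and 0 without the library block. Of markers of villus position, 0 of 5 for the base, 1 of 7 for the middle (Lct, log2 0.28) and 3 of 9 for the tip (Apoa4 0.35, Apoa1 0.31 and Klf4 0.30) were higher, and within the Cubn-led cluster Apoa4 and Apoa1 had 0.16 and 0.14. Leaving out 1 library ended the calls of Apoa4, Apoa1 and Klf4 (without Arid3a cKO 2, at 0.28, 0.34 and 0.18), of Lct (without Arid3a cKO 1, 0.32, or WT, 0.25) and of Klf4 again (without WT, 0.32). None of 8 general epithelial genes was called.

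Of the genes on no list, the higher ones with at least 20 CPM were led by further interferon-response genes. Apol9a, an apolipoprotein L, was at 39.6, 42.1 and 37.6 CPM against 4.09, 6.55 and 4.77 CPM (log2 2.99, SE 0.15; edgeR, adjusted p = 1.11e-09), and its near copy Apol9b makes the value uncertain. Gm12250, annotated as a processed pseudogene among the immunity-related GTPases, was at 48.8, 48.0 and 81.4 CPM against 8.48, 5.22 and 18.4 CPM (log2 2.52, SE 0.16; edgeR, adjusted p = 1.26e-08). Next in order were Slfn2 (1.98), Ifi47 (1.5), Cck (1.37), Trim12a (1.25), Enpp3 (1.06), Trafd1 (0.96), AC158238.2 (0.88) and Mitd1 (0.87). Cck, an enteroendocrine hormone, stands apart from them, since 10 cells held 99.7% of its UMIs in the interferon-high cells and without Arid3a cKO 2 its log2 fold change was 0.15.

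The lower genes with the largest differences were mainly hormone and antimicrobial genes of secretory cells, and few cells carried them. They were Sst (log2 -6.51), Tff2 (-5.59), Gip (-5.30), Ghrl (-4.31), Mptx2 (-2.85), Gcg (-2.72), Ang4 (-2.27), Gkn3 (-2.06), Defa3 (-1.91) and Defa17 (-1.84). For each of them 10 matched cells held between 76.3 and 98.99% of the UMIs in matched cells, and none of the 10 was called without the library block. Sst, the gene of the hormone somatostatin, was at 2.05, 0 and 2.09 CPM in the interferon-high cells against 1.96, 290 and 145 CPM. In Arid3a cKO 1 the values were level, and the difference lay in the other two libraries. Tff2 and Gkn3 were not called without Arid3a cKO 2 (-1.09 and -0.80), and without WT Defa3 was not called (-0.68) and Mptx2 changed sign (0.90).

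Within the Cubn-led cluster the cells were also grouped by the number of selecting genes detected. Genes that vary together with the selecting genes had to differ between such steps, so the levels are a description only. They are pooled over the cells of a step, and whether the response was graded from cell to cell was not tested. Cells with 0, 1, 2, 3, 4 and 5 or 6 of the selecting genes numbered 171, 285, 254, 159, 63 and 45. Over these steps the effector genes (without the Ifitm genes, and none of them used for selection) were together at 826, 866, 973, 1150, 1334 and 2850 CPM, and Irf7 was at 39.9, 34.98, 55.8, 69.8, 88.7 and 207 CPM. The largest step came between 4 genes and 5 or more. In the cells with 5 or 6 genes the effectors stood at 2919, 2967 and 2737 CPM by library, against 1477, 1313 and 1185 CPM in the cells with 4 genes, so all 3 libraries had this step. Usp18 was at 1.05, 1.17, 2.64, 3.65, 7.13 and 73.8 CPM. It changed from near absence to a clear level at the last step only. The 9 receptor and kinase genes stayed level, at 567, 576, 566, 567, 581 and 560 CPM.

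**Figure D4:**
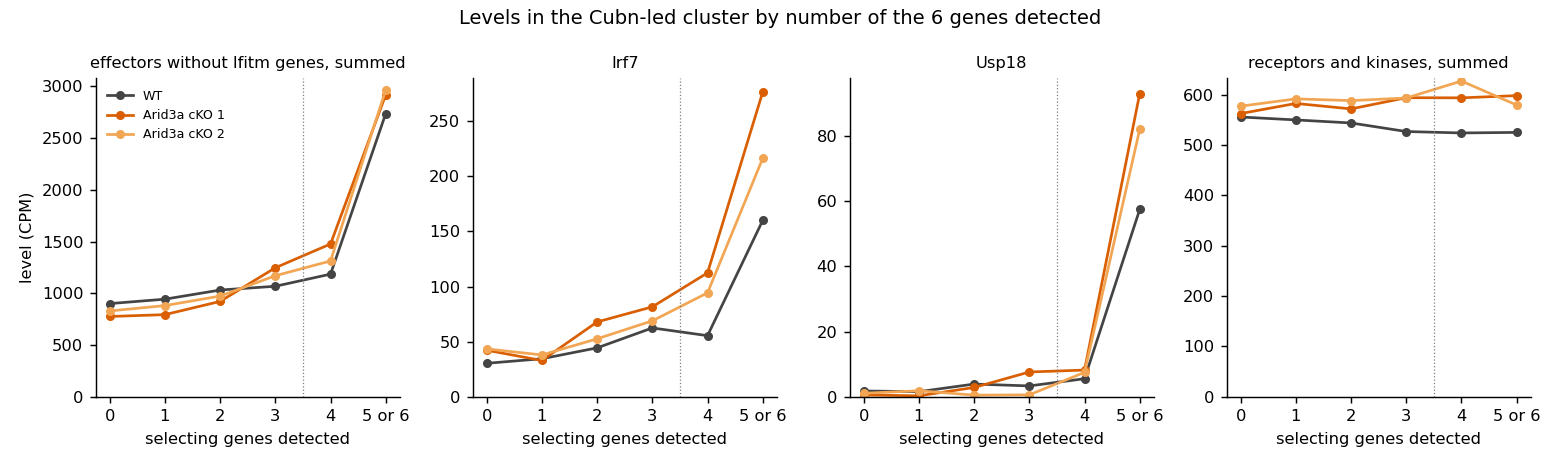
CPM of the antiviral effectors without Ifitm genes, Irf7, Usp18 and the receptor and kinase genes in cells of the Cubn-led cluster, by the number of selecting genes detected (0 to 5 or 6), for each library; the dotted line marks the selection threshold. Effectors, Irf7 and Usp18 are highest in the cells with 5 or 6 genes, while receptors stay between 524 and 627 CPM.

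Effectors were also higher in the interferon-high cells of the other classes, whose remaining cells had lower levels than those of the Cubn-led cluster. Effectors without the Ifitm genes were at 1922 CPM in the interferon-high and 947 CPM in the other cells of the Cubn-led cluster, at 1396 and 672 CPM in the other enterocyte-like clusters, and at 1266 and 359 CPM in all remaining clusters. The remaining clusters were pooled without matching. Of their 37 interferon-high cells 4 were stem-like, 13 goblet-like and 10 marked by Scrublet, whereas 1078 stem-like and 395 goblet-like cells were kept. Their 2 values therefore compare unlike mixes of cells, and not a difference within 1 cell type. The 3 classes had similar medians of 15, 14.5 and 15 selecting-gene UMIs per interferon-high cell. Of the 74 cells with 20 or more such UMIs, 65 (87.8%) were enterocyte-like.

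Between the genotypes, levels were compared within the Cubn-led cluster, where 38, 30 and 40 interferon-high cells were available, and without a test. A gene was counted when it had a mean of at least 20 CPM and both cKO libraries had a log2 ratio to WT, of CPM + 5, of 1 or more, or of -1 or less. Of 4645 genes in the interferon-high cells, 9 were counted as higher in cKO (0.194%) and 21 as lower (0.452%). In the other cells of the cluster it was 5 (0.107%) and 14 (0.299%) of 4675. The effectors were together at 1992, 1965 and 1941 CPM in the interferon-high cells of the 3 libraries. Ifi44 among them was at 9.76, 11.2 and 29.3 CPM (12, 12 and 40 UMIs), below the limit of 20 CPM on average, with log2 ratios to WT of -1.22 and -1.08. The 6 selecting genes, by which the cells were chosen, were together at 1190, 1356 and 1186 CPM and MHC class I genes at 6961, 7154 and 7490 CPM. The log2 ratios to WT lay between -0.11 and 0.04 for the summed effectors and MHC class I genes.

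The sensors were together at 567, 496 and 715 CPM in the interferon-high cells, with log2 ratios to WT of -0.33 and -0.52. In the other cells of the cluster their ratios were -0.32 and -0.37, and Zbp1 was counted as lower there. Transcription factors had ratios of -0.01 and -0.25 in the interferon-high cells and -0.46 and -0.58 in the other cells. The interferon-γ type genes differed by more. Together they were at 542, 411 and 1483 CPM in the interferon-high cells and at 333, 204 and 1275 CPM in the other cells of the cluster, with WT highest in both. The log2 ratios to WT were -1.44 and -1.84 in the interferon-high cells and -1.92 and -2.62 in the other cells. Cd74 was at 78.0, 86.9 and 505 CPM in the interferon-high cells and at 83.5, 52.1 and 519 CPM in the others, and Igtp at 103, 84.1 and 221 CPM and 19.5, 11.4 and 67.7 CPM. For Cd74 the interferon-high cells were above the others in Arid3a cKO 2 and slightly below them in the other two libraries, whereas for Igtp they were above in all 3. All 5 class II genes counted as lower in the interferon-high cells (Cd74, H2-Aa, H2-Ab1, H2-Eb1 and H2-DMb1) were counted as lower in the other cells as well. Reg3g, an antimicrobial lectin, was at 1126, 158 and 3276 CPM in the interferon-high cells and at 681, 590 and 2926 CPM in the others. It was highest in WT in both kinds of cells.

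Of the genes lower in the interferon-high cells of cKO alone, 7 were goblet markers, none of which was counted in the other cells. Muc2, the main intestinal mucin, was at 9.76, 1.87 and 176 CPM, but 1 WT cell held 196 of its 240 UMIs in WT (81.7%). That cell therefore sets the WT value. Among the genes higher in cKO was Muc3, a membrane mucin of enterocytes, at 293, 399 and 125 CPM in the interferon-high cells and at 233, 223 and 102 CPM in the others. Cxcl10 was at 30.1, 17.8 and 1.47 CPM in the interferon-high cells of the cluster, below the limit of 20 CPM on average, and 1 cell held 18 of the 19 UMIs in Arid3a cKO 2.

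**Figure D5:**
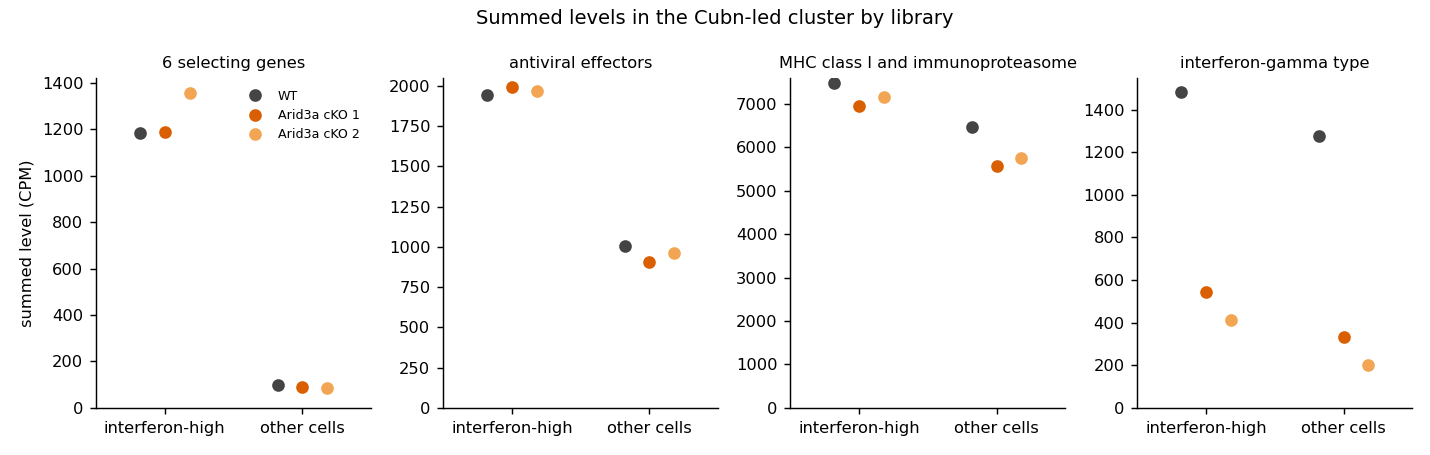
Summed CPM of 4 gene groups in interferon-high cells and in other cells of the Cubn-led cluster, 1 point per library. In the interferon-high cells effectors lie between 1941 and 1992 CPM and MHC class I genes between 6961 and 7490 CPM, while interferon-γ type genes are highest in WT (1483 CPM in the interferon-high cells, against 542 and 411 CPM).

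The effector genes were also summed over all kept cells, with and without the interferon-high cells. The 36 effectors were together at 919, 999.9 and 1142 CPM with these cells and at 892, 975 and 1112 CPM without them. WT was highest in both cases, with a mean log2 ratio of cKO to WT of -0.25 in both, which was not tested. Without the Ifitm genes, which were high outside the enterocyte-like clusters in any case, the other 33 were at 520, 537 and 594 CPM with the interferon-high cells and at 485, 502 and 545 CPM without them, and the mean log2 ratio was -0.17 and -0.14.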

How the data were processed

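Cells from 2 Arid3a cKO libraries and 1 WT library were analysed. CellRanger 5.0 was run by the authors for alignment and counting, and what they deposited are unnormalised UMI counts for each gene in each barcode. The submitters' processing notes list the builds GRCh38 and hg19, which are human, with no role, so the build used in that step could not be settled. Of 51912 features, 51633 matched GENCODE M21 (GRCm38) by identifier. The labels gave the genotype of each sample. The design text speaks of 2 biological replicates per condition, and 1 WT library was analysed here.

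Barcodes with at least 1000 genes and at most 15% of UMIs from mt- genes were kept, which left 5594 of 25554 (21.9%). Members and gene lists were chosen with earlier results of these data known. Doublets marked by Scrublet (scanpy 1.11.5, seed 1) were kept in the main analysis. For clustering, 125 interferon genes were left out, libraries were integrated in Seurat 5.3.0 under R 4.3.3 (canonical correlation), and clusters were taken at a resolution of 0.3 on 30 components. Clusters were named from marker lists by a scoring rule set after the clusters had been seen, and the tuft-like cluster, whose cells had a median depth of 0.297 relative to their libraries, kept its name for the tuft markers among its top 10 genes.

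UMIs were summed per library over interferon-high cells and over up to 10 matched cells for each (1661 in all, as some clusters, among them the Cubn-led one, ran short). The 6 sums were tested with edgeR 4.0.16 (quasi-likelihood, TMM, filterByExpr, library as a block, since both sums of a pair come from the same library), with Benjamini-Hochberg adjustment over 11630 genes. On simulated sums, 97.5% of 200 genes changed 4-fold were recovered and 7 of the unchanged genes were called, among 11408 tested. The simulation gave every gene the same dispersion and changed only genes above a minimum mean count. It did not model genes whose UMIs lie in few cells, so it cannot tell how often such genes are called wrongly. Recovery of changes smaller than 4-fold was not tested. In the data, 226 of the 291 genes called higher had a log2 fold change from 0 to 1. DESeq2 1.42.0 was an alternative. Values of some list genes are not reported here, although the counts and medians of their lists include them. Named besides list genes were the 10 largest changes in each direction among called genes with a mean of at least 20 CPM. CPM were computed from the counts, and log2 ratios between genotypes used CPM + 5. Intervals are exact at 95%, and a count of 0 was bounded at 3 counts.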

Additional observations from a re-analysis of the deposited data

Results flagged for a closer look

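Cxcl10 was picked out among the named genes because its difference had opposite signs in WT and in both cKO libraries. Over all libraries its log2 fold change between interferon-high and matched cells was 2.33, but in both Arid3a cKO libraries it was higher in the interferon-high cells (19.5 against 2.43 CPM and 10.8 against 1.21 CPM), whereas in WT it was slightly lower (1.74 against 1.88 CPM). The WT values lay near the 1.04 CPM that a count of 0 allows in the interferon-high cells of WT, so the sign there is uncertain. In the Cubn-led cluster 10 of 38, 2 of 30 and 2 of 40 interferon-high cells had a Cxcl10 UMI, and in Arid3a cKO 1 a single cell held 18 of 37 UMIs. Akp3, Tm4sf4, Defa21 and Defa22 were called with opposite signs in the genotypes as well. The difference between the genotypes was not tested.

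Cells that met the rule were also found among barcodes that the cell filter had removed. Of 1899 barcodes that passed only a wider filter (at least 500 genes and at most 25% mitochondrial UMIs), 72 had at least 4 of the 6 genes (3.79%). By library these were 15 of 461 (3.25%), 24 of 600 (4%) and 33 of 838 (3.94%), close to the shares of 2.81%, 3.16% and 4.19% among the cells kept.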

How the results depend on the processing

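The share of interferon-high cells was lower in the cKO libraries than in WT (-1.20 percentage points). It was -0.42 after thinning, -2.47 with at least 3 genes and -0.48 with at least 5, and -1.03 and -1.38 without Arid3a cKO 1 and 2. It turned to 0.0069 among interferon-high cells with 20 or more UMIs of the 6 genes and to 0.043 for the cluster formed by the interferon genes, both added after the data had been seen. Between interferon-high and matched cells 576 genes were called. The count was 293 by DESeq2, 243 with 3 matched cells per interferon-high cell, 321 in enterocyte-like clusters, 250 in the Cubn-led cluster (added after the data had been seen), 167 with at least 5 genes and 344 without doublets. There were 5951 calls against all other cells and 3630 against matched cells with none of the 6 genes. With a library left out there were 284 (without WT) to 614 calls. Without the replicate block there were 44 (44 higher, 0 lower), the largest change as a ratio. No paired analysis was possible because the genotypes share only 1 replicate number, and no genotype difference was tested. Directions reversed for Ifitm2 with at least 5 genes (0.18), Ifitm3 with at least 5 genes (1.02), in enterocyte-like clusters (3.25) and in the Cubn-led cluster (3.86), Mptx2 with at least 5 genes (0.74), without doublets (0.96) and without WT (0.90, from -3.10 without Arid3a cKO 2), Ang4 in enterocyte-like clusters (0.74) and the Cubn-led cluster (0.24), Gkn3 in enterocyte-like clusters (1.04), and Defa3 and Defa17 without doublets (1.27 and 0.58). Their causes were not tested. Of 1060 values of named genes under the alternatives, 865 kept direction and call, 170 lost the call and 13 gained it. The enterocyte-like share of 80.4% moved between 76.0 and 84.7%, and the effector ratio of -0.25 between -0.31 and -0.17, the latter without the Ifitm genes (added after the data had been seen).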

Other observations

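Ribosomal protein genes, counted by name after their values had been seen, were lower in the interferon-high cells. Of 83 tested, 76 were lower and none higher, with a median log2 fold change of -0.35, beside 2.45% lower among all genes tested. With 3 matched cells per interferon-high cell 45 of 81 were lower (median -0.27). Their share of all UMIs was 5.70, 6.59 and 6.07% in the interferon-high cells of the 3 libraries and 7.21, 8.61 and 7.98% in the matched cells, so the order was the same in each library. Within the Cubn-led cluster the shares were 3.22, 2.63 and 2.79% against 3.54, 3.6003 and 3.11% in the other cells, and 39 of 81 genes were lower (median -0.23). This cluster, with its low shares, made up more of the interferon-high than of the matched cells. The part of the cluster mix in the difference over all classes was not tested. With at least 5 of the 6 selecting genes 3 were lower, and none was called without the library block.

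Among the promoter windows, a match to the ISRE-like core was present in 15 of 24 genes with a log2 fold change of 2 or more (33 genes, 9 of them without a RefSeq window), against 318 of 8615 tested genes with a window (3.69%). Of 8 receptor and kinase genes with a window 0 held it. For Ifi44, Irf7, Oasl2 and Rnf213 these letters were not in the window. It was in 44 of the 228 higher and 14 of the 205 lower genes with a window. Windows were given for under 80% of the higher genes, of those with a log2 fold change of 2 or more, and of the lower and tested genes, so none of these shares speaks for a whole group.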
